A study of Drosophila melanogaster x Drosophila simulans and Drosophila melanogaster and Drosophila simulans with 186 samples.

Results

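A set of 27 genes known by a CG number, the name FlyBase gives to a gene that has been annotated from sequence but not yet named, had different allele usage at the anterior and posterior ends of *D. melanogaster* × *D. simulans* hybrid embryos. Allele usage was measured as the allele-specific expression (ASE) score, which is the *D. simulans* minus the *D. melanogaster* reads over their sum, so that 1 means *D. simulans* reads alone and -1 *D. melanogaster* reads alone. A gene was a member if its symbol in the deposited ASE table starts with CG, it is not on the X chromosome, and it had at least 3 values at the anterior end and at the posterior end of each of 5 hybrid embryos, each end being the slices within 1/3 of the embryo length. The mean ASE of the anterior end minus that of the posterior end, called the end-to-end ASE difference here, had to have the same sign in all 5 embryos and a mean absolute value of at least 0.2. Genes with a mean ASE of at least 0.2, or of at most -0.2, in all 5 embryos were left out. There were 27 members among 1515 CG genes with enough values, or 1.78%, in a table of 7432 genes. Genes with other names met the same rule in 52 of 2418 cases, or 2.15%. The members were thus chosen by their ASE at the ends of the hybrid embryos, so these values are given as a description with no test.

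The samples were single cryosections of 7 embryos at the cellular blastoderm stage (mid-stage 5, nuclear cycle 14), each sequenced as poly-adenylated RNA with SMART-seq2, 186 slices in all. The groups were F1 hybrids with a *D. simulans* mother (simXmel, 2 embryos), F1 hybrids with a *D. melanogaster* mother (melXsim, 3 embryos), 1 embryo of the *D. simulans* strain w501 (simXsim) and 1 of the *D. melanogaster* strain DGRP line 340 (melXmel), all fixed in methanol. Each species was represented by 1 strain. Slices of an embryo share that animal, so the embryo was the replicate.

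At this stage the embryo is a layer of nuclei that is being closed off into cells, and its RNA is a mixture of mRNA that the mother loaded into the egg and of new transcripts from the zygotic genome. In a hybrid nucleus both alleles see the same transcription factors, so a score that differs along the axis compares the 2 alleles within the same cells. Maternal mRNA carries only the mother's allele, so it draws the score towards the mother's species. The anterior-posterior pattern is laid down by maternal gradients such as that of Bicoid and by the gap genes, and many zygotic genes read this information through enhancers.

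Of the slices of each hybrid embryo, 24 to 26 had ASE values and 20 to 26 had FPKM values in the joint table. Of 10 markers of the ends, all 10 were higher at their own end in 6 embryos and 9 were in melXsim replicate 2, where *bcd* had 0.644 FPKM at the anterior and 2.22 FPKM at the posterior end. In the parental embryos, where all reads come from one species, the mean ASE of the members ranged from 0.748 to 0.995 in simXsim (24 members with a value, median 0.983) and from -0.999 to -0.945 in melXmel (13 members, median -0.998). The allele counts summed over a gene's SNPs were usable for the 15 members whose coordinates are the same in the allele count and FPKM files, and a read over several SNPs counts several times in them. The median of these SNP counts per slice ran from 35 in CG31886 to 1450 in CG8960.

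Among the 27 members, 18 had the higher share of *D. simulans* reads at the anterior end and 9 had it at the posterior end. The median absolute end-to-end difference was 0.255 in the members, against 0.243 in the 52 genes with other names and 0.0744 in all 1515 CG genes. A single sign in all 5 embryos, with no limit on size, was seen in 163 CG genes, or 10.8%. The difference was at least 0.2 in each of the 5 embryos in 7 members, and 11 members had less than 0.1 in at least 1 embryo. The members just inside the limit were CG43427 (0.2002), CG5706 (0.2025) and CG5664 (0.2063), and the CG genes just outside it were CG15480 (0.1992), CG43394 (0.1931) and CG15628 (0.1917). The rule on species bias removed 5 CG genes, CG16815, CG30080, CG34266, CG42662 and CG43085.

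**Figure D1:**
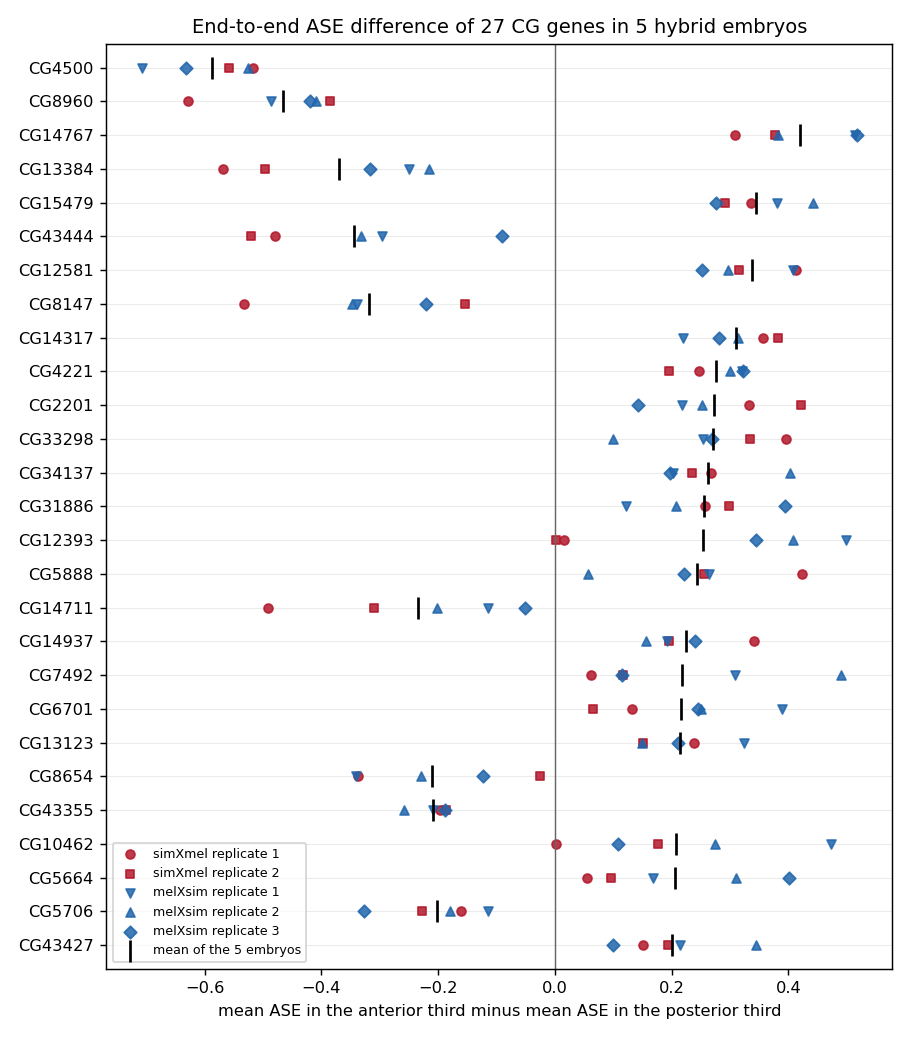
End-to-end ASE difference (mean ASE of the anterior end minus that of the posterior end, x axis) of the 27 members (rows, ordered by mean absolute difference). Each symbol is 1 hybrid embryo, red for simXmel and blue for melXsim, and the bar is the mean of 5. CG4500 lies between -0.708 and -0.517, and the 2 simXmel embryos of CG12393 lie at 0.0155 and 0.0023, close to 0.

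The chromosomes of the members are given as counts, with no test. Chromosome arm 2L held 13 of the 27, or 48.1%, against 22.6% of the 1515 CG genes and 8 of the 52 genes with other names, while 2R held 3, 3L held 4, 3R held 7 and the fourth chromosome none. Of the 27 FlyBase identifiers, 26 were found in a current gene list, where 9 have since received a name. These are CG15479 (*Mabi*), CG43444 (*Tet*), CG8147 (*phu*), CG14317 (*bard*), CG4221 (*Fbxl7*), CG34137 (*dunk*), CG12393 (*IPIP*), CG5706 (*beta-PheRS*) and CG43427 (*smash*). All 26 are annotated as protein-coding in the release 6 annotation.

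Some members share reads with a neighbour, so their score may be partly that of another gene. In the release 6 annotation CG43355 shares 98.3% of its exon bases with *sala* on the same strand, and CG14711 shares 86.9% with *Zaf1* on the opposite strand. CG12393 shares exon bases with both CG34179 and *slmo* on the opposite strand, and the larger of these overlaps covers 35.6%. The libraries do not mark strand, so reads from such overlaps cannot be told apart. CG12581 lies at the start of the 3R coordinates of release 5, from 354 to 12473. Its exons hold transposable element sequence, and the largest overlap with a single element covers 14.1% of them. In the FPKM files, the spans of 12 members overlap that of another gene, and CG4500 overlaps CG18095.

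The largest end-to-end difference was that of CG4500 (FBgn0028519, 2L from 14027001 to 14029368 in release 5 coordinates). The difference was -0.517 and -0.559 in the 2 simXmel embryos, and -0.708, -0.526 and -0.631 in the 3 melXsim embryos. The score averaged -0.193 ± 0.083 at the anterior end, 0.035 in the middle and 0.396 ± 0.062 at the posterior end (SD, n = 5), and it changed sign from end to end in all 5 embryos. In 9 equal parts of the embryo the mean score ran from -0.439 in the anterior-most part to 0.456 in the posterior-most part. The profile had a step of 0.344 after the anterior-most part, a flat stretch at about the same level up to the fourth part (-0.0951, -0.0828 and -0.0865), and a climb over the rest of the length.

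CG8960 (FBgn0035315, 3L from 2197013 to 2198089) was next, with -0.628 and -0.385 in simXmel and -0.486, -0.410 and -0.420 in melXsim. Its score was lowest at the anterior end and near 0 over the rest of the embryo, with -0.528 ± 0.139 at the anterior end and -0.063 ± 0.103 at the posterior end (SD, n = 5). In the 9 parts it was -0.725, -0.546 and -0.320 in the first 3, and it then stayed between -0.153 and -0.0046. In the simXsim embryo the score of CG8960 averaged 0.889 over 3 anterior slices (lowest 0.681) and 0.995 over 4 posterior slices. Every other member with simXsim values at both ends, except CG12393, also scored lower at the anterior end, some from 1 slice at an end. CG14317 and CG5888 had 0.965 and 0.973, against 0.999 at the posterior end. The anterior and posterior scores were 0.2 and 0.999 in CG8147, 0.909 and 0.960 in CG7492, and 0.978 and 0.989 in CG2201. They were 0.979 and 0.992 in CG43355, 0.989 and 0.994 in CG43444, and 0.986 and 0.989 in CG33298. CG12393 had 0.990 at the anterior and 0.987 at the posterior end. The reason for the lower anterior scores in simXsim, and their part in the results, were not tested.

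CG13384 (FBgn0032036, 2L from 8384455 to 8388804) had -0.568 and -0.496 in simXmel and -0.251, -0.215 and -0.318 in melXsim. Both simXmel embryos had larger differences than the 3 melXsim embryos. Its lowest score, -0.502, was again in the anterior-most part of the embryo. CG43444 (FBgn0263392, 3L from 2786207 to 2879158), now *Tet*, encodes a protein of the TET dioxygenase family, which oxidizes methylated bases. It had -0.479 and -0.521 in simXmel and -0.295, -0.332 and -0.090 in melXsim. Its score was lowest in the second part of the embryo, at -0.359, and highest in the middle part, at 0.251, so it was not a simple slope.

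CG8147 (FBgn0043791, 3R from 5320523 to 5322445), now *phu*, had -0.532 and -0.154 in simXmel and -0.339, -0.348 and -0.221 in melXsim. Its score was below 0 at both ends, with -0.411 ± 0.148 at the anterior end and -0.093 ± 0.075 at the posterior end (SD, n = 5). In the hybrids this gene had a mean of 14.3 FPKM at the anterior end, against 325 FPKM at the posterior end. In the only anterior slice of simXsim with a value its score was 0.2, against a mean of 0.999 over 4 posterior slices. The reason for the low value in that 1 slice, and its part in the difference of the hybrids, were not tested.

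The other 4 members with more *D. simulans* reads at the posterior end had mean differences of -0.234 (CG14711), -0.211 (CG8654), -0.208 (CG43355) and -0.203 (CG5706). CG5706, now *beta-PheRS*, encodes the beta subunit of phenylalanyl-tRNA synthetase. CG14711 had -0.491 and -0.311 in simXmel and -0.114, -0.202 and -0.052 in melXsim. CG43355 had the smallest spread over embryos among the members, with a range of -0.259 to -0.187 and an SD of 0.030.

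**Figure D2:**
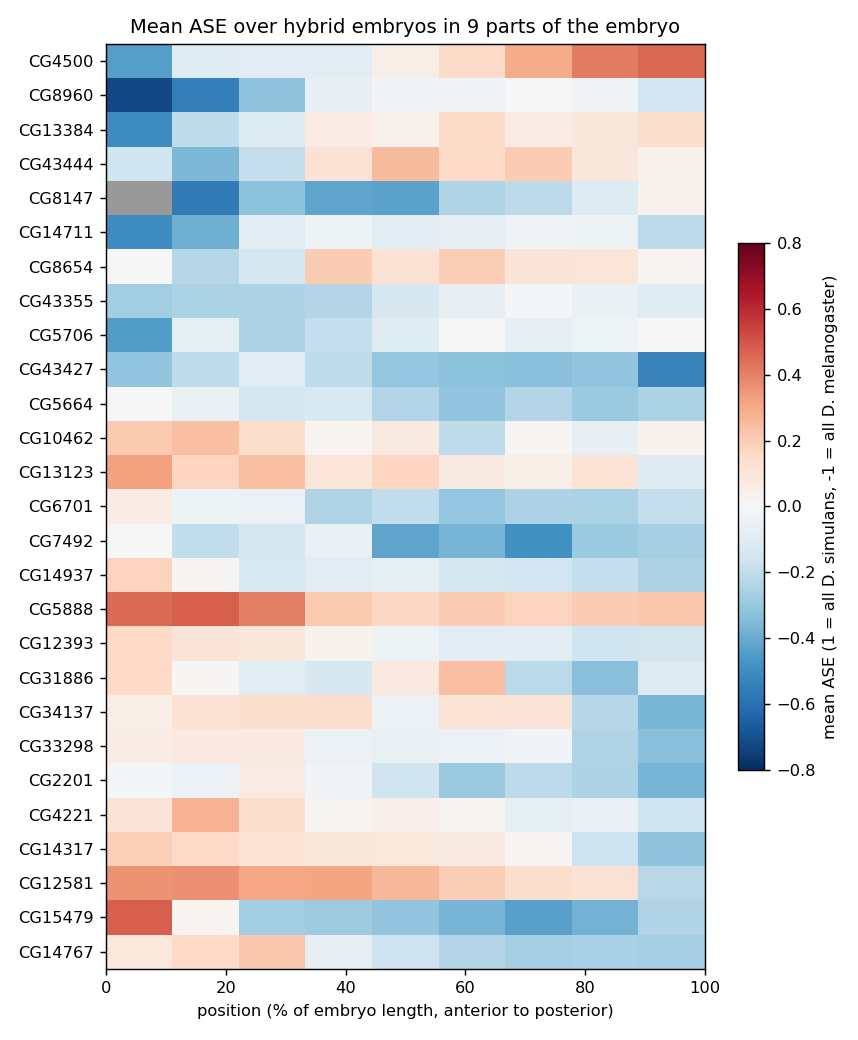
Mean ASE over the hybrid embryos with values, 5 in most cells and 2 to 4 in some cells of CG15479, CG31886, CG5888, CG10462 and CG5706, in 9 equal parts of the embryo length (x axis, anterior left), 1 row a member, ordered by mean end-to-end difference. Red is a majority of *D. simulans* reads and blue of *D. melanogaster* reads, and grey marks a part without values. CG8960 is at -0.725 in the anterior-most part, CG4500 reaches 0.456 at the posterior end, and CG5888 stays red along the whole length.

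Among the 18 members with more *D. simulans* reads at the anterior end, CG14767 (FBgn0040777, 2R from 4605522 to 4611344) had the largest difference, with 0.309 and 0.377 in simXmel and 0.514, 0.382 and 0.517 in melXsim. Its score averaged 0.153 ± 0.101 at the anterior end and -0.267 ± 0.167 at the posterior end (SD, n = 5), and it changed sign in all 5 embryos. The highest score, 0.216, was in part 3 of the 9 and not at the tip.

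CG15479 (FBgn0032493, 2L from 13233798 to 13234660), now *Mabi*, had 0.335 and 0.292 in simXmel and 0.380, 0.441 and 0.276 in melXsim. The score was 0.478 in the anterior-most part (mean of the 3 embryos with enough values there), 0.0142 in the next and -0.279 in part 3, and it stayed between -0.436 and -0.241 behind that. The score of CG15479 was thus highest towards the anterior end. Each slice weighs the same in these means, and its slices at the ends had 18 to 932 SNP counts. With the counts pooled over slices and hybrid embryos, the scores were -0.149 at the anterior and -0.354 at the posterior end. That is a difference of 0.205, against 0.345 from the means of slices. In simXsim, CG15479 had a value in 1 anterior slice alone, at 0.748.

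CG12581 (FBgn0037213, 3R from 354 to 12473) had 0.413 and 0.315 in simXmel and 0.408, 0.297 and 0.251 in melXsim. Its score was 0.347 ± 0.055 at the anterior end and 0.010 ± 0.122 at the posterior end (SD, n = 5), and the steepest step, -0.333, came before the posterior-most part. CG14317 (FBgn0038566, 3R from 13906770 to 13908305), now *bard*, had 0.356 and 0.382 in simXmel and 0.219, 0.313 and 0.281 in melXsim, with the lowest score, -0.321, also in the posterior-most part. In both genes the score moved mainly near the posterior end.

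CG4221 (FBgn0038385, 3R from 11746620 to 11758609), now *Fbxl7*, encodes an F-box protein of the Fat pathway, which controls growth and planar polarity in discs. It had 0.246 and 0.196 in simXmel and 0.321, 0.299 and 0.322 in melXsim, and its sign changed from end to end in all 5 embryos. CG34137 (FBgn0083973, 2L from 22151623 to 22152640), now *dunk*, is known to act in cellularization, the step at which the blastoderm nuclei are enclosed in membrane. CG34137 had 0.268 and 0.235 in simXmel and 0.203, 0.403 and 0.198 in melXsim, with a drop of 0.332 between neighbouring parts near the posterior end, at 77.8% of the length. CG33298 (FBgn0032120, 2L from 9495474 to 9520696) had 0.395 and 0.334 in simXmel and 0.253, 0.099 and 0.269 in melXsim.

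CG2201 (FBgn0032955, 2L from 21614232 to 21624080) had 0.333 and 0.421 in simXmel and 0.218, 0.251 and 0.142 in melXsim. Its score was above 0 at both ends of the simXmel embryos and below 0 at both ends of the melXsim embryos. The same signs were seen in CG6701, CG5664 and CG5706. In these genes the end-to-end difference came on top of an offset between the directions of the cross, the reason for which was not tested. CG31886 (FBgn0032079, 2L from 8953481 to 8959051) had 0.256 and 0.297 in simXmel and 0.121, 0.207 and 0.394 in melXsim. CG12393 (FBgn0031768, 2L from 6048002 to 6050474), now *IPIP*, had 0.0155 and 0.0023 in simXmel and 0.498, 0.408 and 0.344 in melXsim. CG12393 thus met the rule with almost no difference in either simXmel embryo.

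Of the remaining 8 members of this sign, CG5888 (FBgn0028523, 2L from 16400175 to 16448469) had 0.424 and 0.255 in simXmel and 0.263, 0.056 and 0.221 in melXsim. CG5888 was above 0 at both ends, with 0.445 ± 0.188 at the anterior end and 0.201 ± 0.061 at the posterior end (SD, n = 5). The mean differences of CG14937, CG7492, CG6701, CG13123, CG10462, CG5664 and CG43427 were 0.225, 0.218, 0.216, 0.214, 0.207, 0.206 and 0.2002. CG43427, now *smash*, encodes a LIM domain protein of epithelial junctions. CG7492 had 0.061 and 0.117 in simXmel and 0.308, 0.489 and 0.114 in melXsim, CG6701 had 0.131 and 0.066 in simXmel and 0.390, 0.2502 and 0.246 in melXsim, and CG10462 had 0.0025 and 0.177 in simXmel and 0.473, 0.275 and 0.108 in melXsim. CG5664 had 0.056 and 0.096 in simXmel and 0.168, 0.310 and 0.402 in melXsim.

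Over the whole set, the mean scores of the ends had opposite signs in 13 members, were both above 0 in 3 and both below 0 in 11. The score of the middle slices lay between those of the ends on average in 21 members and in each of the 5 embryos in 9. The rule did not use the middle for the difference, but the mean that served to leave out species-biased genes includes it. The shares over all genes were not counted, so nothing is read from these counts about the members. The mean difference was larger in the simXmel than in the melXsim embryos in 12 of the 27.

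**Figure D3:**
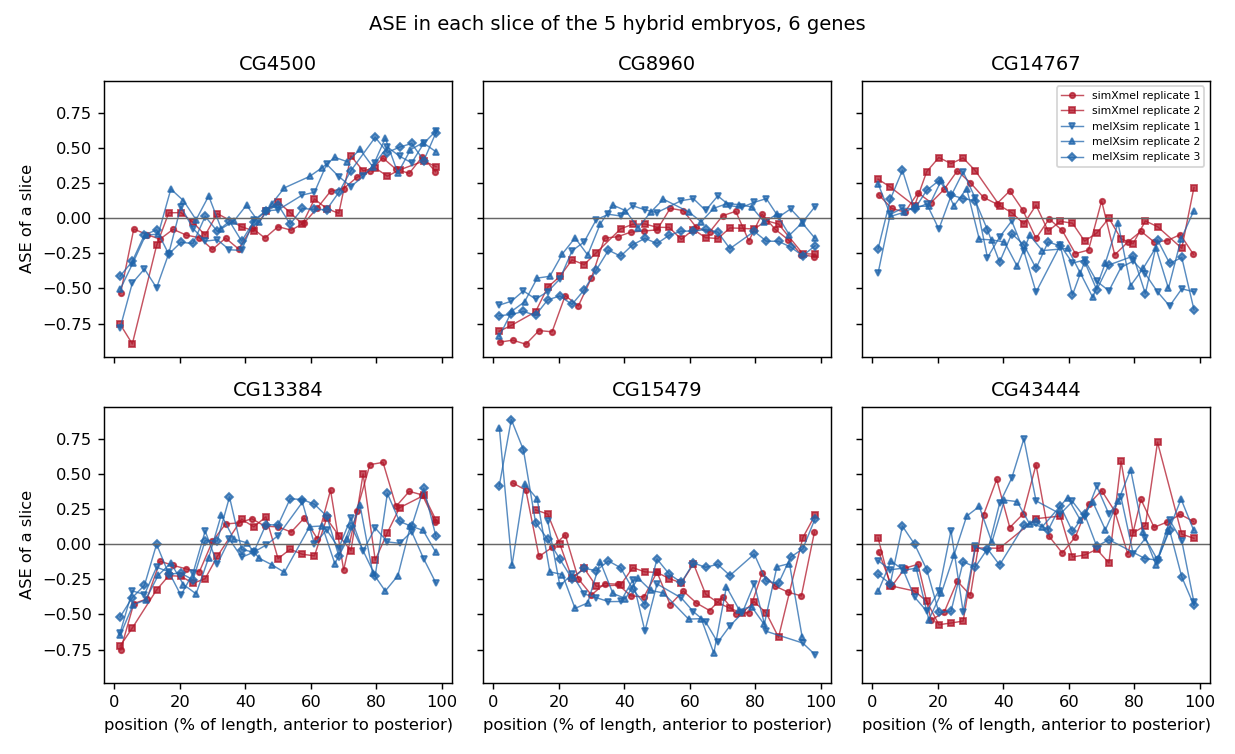
ASE of every slice with a value (y axis) against position in percent of embryo length (x axis, anterior left) for the 6 members of largest mean absolute difference. Each line is 1 hybrid embryo, red for simXmel and blue for melXsim. The 5 embryos follow similar courses in CG4500 and CG8960, and CG15479 is highest near the anterior end, where 2 of the 5 embryos have no values in the anterior-most of 9 parts.

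The counts of single SNPs show how much of each gene carries the difference. For each of the 15 members with usable counts, SNP counts were summed over the slices of an end and over the 5 hybrid embryos, each SNP counted once. SNPs of a gene share reads and are not independent, so these counts describe the same difference and do not test it. CG4500 had 18085 *D. simulans* and 23647 *D. melanogaster* counts at the anterior end, and 35028 and 15140 at the posterior end, over 95 SNPs. All 95 had at least 20 counts at each end and a lower score at the anterior end, with differences of -0.720 to -0.328. In CG8960 the counts were 14347 *D. simulans* and 47792 *D. melanogaster* at the anterior end and 30108 and 32435 at the posterior end, and all 12 SNPs went the same way, by -0.566 to -0.306.

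Every SNP with enough counts also had the sign of its gene in CG34137 (36 of 36), CG5888 (44 of 44), CG14937 (63 of 63) and CG43355 (20 of 20). CG43355 had a median of 1100 counts per slice at a mean level of 0.818 FPKM, the lowest of the members, and nearly all of its exons are also exons of *sala*. The weakest agreement among SNPs was in CG31886, where 17 of 24 had the sign of the gene and single SNPs ranged from -0.310 to 0.842 at a median depth of 35 counts per slice. Over the 15 members, 703 of 738 SNPs, or 95.3%, had the sign of their gene. Of these 15 members, 13 are on 2L and 2 on 3L, so the SNP counts cover no member on 2R or 3R. The score recomputed from these counts and the deposited score had r = 0.994 over 1793 pairs of gene and slice, which share reads and embryos, with a median difference of 0.0099.

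Total expression along the axis was not used by the rule. It was tested with limma on log2(FPKM + 1), the mean of the anterior end minus that of the posterior end in each hybrid embryo, over 5584 genes with a mean of at least 1 FPKM, with Benjamini-Hochberg adjusted p below 0.05 as the limit. Of the 26 members tested, 10 passed (38.5%), against 852 of all genes tested (15.3%). Members also had to have ASE values at both ends of all 5 hybrid embryos, which was not asked of all genes tested. Of the 10, 7 were higher at the anterior end (9.15% of all genes) and 3 at the posterior end (6.11% of all genes). The mean level of the members in hybrids ranged from 0.818 to 1331 FPKM with a median of 28.5 FPKM, and 4 had less than 5 FPKM. Each slice is a bulk sample, so fewer expressing cells and less RNA per cell cannot be told apart.

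The largest axis difference was in CG8147 (*phu*), which had 9.32 and 30.4 FPKM at the anterior end of the simXmel embryos and 8.54, 15.3 and 8.09 FPKM at that of the melXsim embryos. At the posterior end it had 361 and 409 FPKM in simXmel and 388, 264 and 204 FPKM in melXsim. The ends did not overlap, and the gene fell by 5.65 ± 0.23 (log2, SE, n = 5 embryos, limma adjusted p = 9.28e-06) at the anterior relative to the posterior end. CG5888 had 48.1 and 81.8 FPKM at the anterior end in simXmel and 62.0, 53.2 and 59.2 FPKM in melXsim. At the posterior end it had 166 and 225 FPKM in simXmel and 269, 146 and 235 FPKM in melXsim. The difference of CG5888 was -2.04 ± 0.12 (limma adjusted p = 5.14e-05), and it was negative in 5 of 5 embryos. CG2201 was also lower at the anterior end, by -0.55 ± 0.08 (limma adjusted p = 0.00341).

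CG13384 was the most anterior of the members, with 61.3 and 47.2 FPKM at the anterior end of the simXmel embryos and 84.7, 44.3 and 63.0 FPKM at that of the melXsim embryos. At the posterior end it had 13.2 and 13.9 FPKM in simXmel and 19.03, 11.7 and 14.7 FPKM in melXsim. The ends again did not overlap, with a difference of 1.88 ± 0.08 (log2, SE, limma adjusted p = 9.28e-06). CG14317 (*bard*), one of the members of highest level, had 1530 and 1513 FPKM at the anterior end in simXmel and 1265, 666 and 1925 FPKM in melXsim, and 683 and 754 FPKM in simXmel and 527, 272 and 955 FPKM in melXsim at the posterior end. The ranges of its ends overlapped between embryos, but within each of the 5 embryos the anterior end was higher, by 1.17 ± 0.08 (limma adjusted p = 8.98e-05).

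CG14767 was higher at the anterior end by 1.03 ± 0.08 (limma adjusted p = 1.83e-04), CG14711 by 0.77 ± 0.11 (0.00420), CG12581 by 0.65 ± 0.07 (0.00106), CG6701 by 0.46 ± 0.10 (0.0198) and CG43444 by 0.37 ± 0.10 (0.0407). The call of CG43444 (*Tet*) was lost under 8 of 11 alternatives, with adjusted p of 0.102 without melXsim replicate 1, 0.125 without melXsim replicate 2 and 0.106 without simXmel replicate 2 in limma. That of CG6701 was lost under 3 of 11, with 0.0554 without melXsim replicate 1 and 0.0655 without simXmel replicate 2. The 16 members that did not pass had differences from -0.60 in CG15479 to 0.28 in CG12393, and 1 of them, CG12393, had a single sign in all 5 embryos. CG4500 and CG8960, the members of largest ASE difference, were among these 16, with -0.47 ± 0.15 (limma adjusted p = 0.0856) and -0.03 ± 0.11 (0.885). CG4500 passed under 2 of 11 alternatives. Its difference was 0.25 in simXmel replicate 1, while the other 4 embryos had -0.83 to -0.38. Without that embryo the difference was -0.65 (limma adjusted p = 0.00759). With 5 FPKM in place of 1 added before the log it was -0.45 (limma adjusted p = 0.0461). CG33298, with -0.42 ± 0.14 (limma adjusted p = 0.0831), passed under 3 of 11 alternatives. These were without simXmel replicate 2 (-0.56, limma adjusted p = 0.0255), with 5 FPKM added, and with ends of 1/4 of the length.

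**Figure D4:**
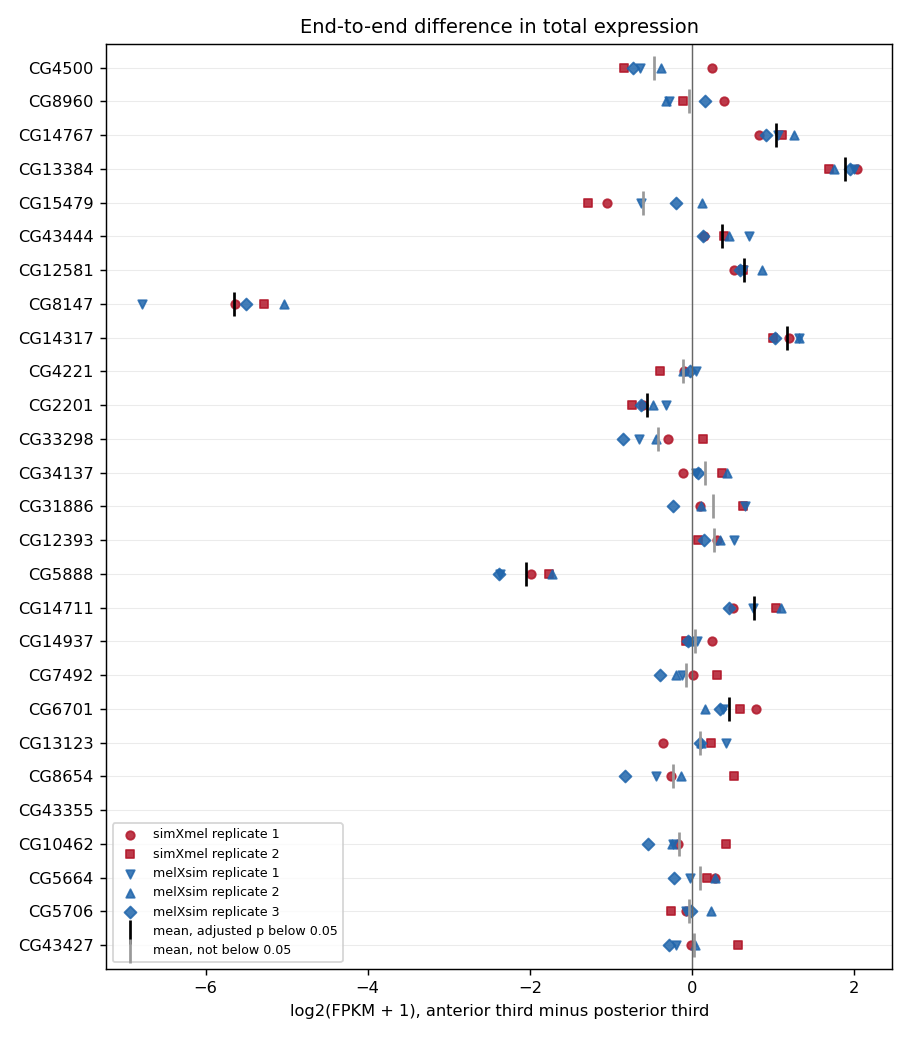
End-to-end difference in total expression, log2(FPKM + 1) of the anterior minus the posterior end (x axis), in each hybrid embryo (red simXmel, blue melXsim) for the 26 members tested. CG43355, under 1 FPKM, has no points. Bars are means of 5 embryos, black with an adjusted p below 0.05 and grey otherwise. CG8147 lies below -5 in all 5 embryos, CG13384 lies between 1.69 and 2.03, and CG8960 straddles 0.

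The direction of the cross did not change the axis difference of a member past the limit. The interaction was called in 1 of 5584 genes, which was no member, and 4 members had an unadjusted p below 0.05 (lowest limma adjusted p of a member 0.277). These were CG15479, CG33298, CG7492 and CG6701. CG7492 had 0.01 and 0.31 in simXmel and -0.13, -0.19 and -0.39 in melXsim, on opposite sides of 0, with an adjusted interaction p of 0.424 in limma.

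Splitting the level of a slice by its score gives the level of each allele, a description that uses the same ASE values as the rule. In CG4500 the *D. simulans* allele averaged 62.8 FPKM at the anterior end and 130 FPKM at the posterior end, while the *D. melanogaster* allele averaged 84.5 and 55.8 FPKM. In CG8960 the *D. simulans* allele averaged 270 FPKM at the anterior and 600 FPKM at the posterior end, and the *D. melanogaster* allele 985 and 658 FPKM. The total of CG8960 was thus similar at the ends while its 2 alleles leaned to opposite ends. A difference of at least 1 on the log2 scale was reached by the *D. simulans* allele alone in 5 members (CG4500, CG8960, CG14767, CG12581 and CG14317), by the *D. melanogaster* allele alone in 1 (CG14711), by both alleles towards the same end in 3 (CG13384, CG8147 and CG5888) and by neither in 18. The allele differences compare log2(FPKM + 1) of the mean level at each end, over slices with a score. The test of total expression averaged the log2 values of slices, so the 2 are unlike measures. In CG8147 the *D. simulans* allele had -4.10 and the *D. melanogaster* allele -3.28, against -5.65 for total expression. Some allele values lay close to the limit of 1. The *D. simulans* allele had -1.04 in CG4500, 1.06 in CG12581 and 0.97 in CG6701, and the *D. melanogaster* allele 1.02 in CG14711. The shares over all genes were not counted, so the split between alleles is a description of these members alone.

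The score of a whole embryo was then compared between directions of the cross, another contrast than that of the rule. The mean score of an embryo includes the slices of the ends and also served to leave out species-biased genes, so the share of members called is a description beside that of all genes, and nothing is read from it about the members. The test was limma on log2 allele ratios, simXmel minus melXsim, over 3933 genes. Of the 27 members, 10 passed (37%), all of them with more *D. simulans* reads where the mother was *D. simulans*, against 3350 of all genes tested (85.2%, or 85.1% in that direction). The median difference was 0.37 in the members and 3.89 in all genes.

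Among the 10, CG6701 had a mean ASE of 0.482 and 0.417 in simXmel and -0.512, -0.567 and -0.624 in melXsim, a difference of 3.26 ± 0.29 (log2 ratio, SE, n = 2 and 3 embryos, limma adjusted p = 3.63e-05). CG12393 had 0.546 and 0.554 in simXmel and -0.388, -0.215 and -0.559 in melXsim, a difference of 2.996 ± 0.395 (limma adjusted p = 3.05e-04). CG10462 had 0.736 and 0.463 in simXmel and -0.143, -0.138 and -0.540 in melXsim (2.93 ± 0.56, limma adjusted p = 0.00220). CG2201 (2.45 ± 0.42), CG5664 (2.401 ± 0.490), CG43427 (2.09 ± 0.54) and CG5706 (1.55 ± 0.37) followed, with limma adjusted p-values of 0.00118 to 0.00884.

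The remaining 3 were CG7492 (1.14 ± 0.35), CG14711 (1.14 ± 0.32) and CG31886 (0.90 ± 0.29), with limma adjusted p-values of 0.0124 to 0.0227. Among the 17 members that did not pass, CG14767 passed with the difference taken on the ASE scale (0.2104, limma adjusted p = 0.00693), against 0.61 (0.0695) as log2 ratio. CG4500 had 0.031 and 0.038 in simXmel and 0.055, 0.178 and 0.081 in melXsim, a difference of -0.20 ± 0.27 (limma adjusted p = 0.508). CG13384 had 0.064 and -0.044 in simXmel and -0.077, -0.117 and 0.029 in melXsim. The count of 10 was 6 without simXmel replicate 1 and 6 without simXmel replicate 2. Either leaves 1 simXmel embryo, which is assumed to vary like the melXsim embryos. CG31886, CG14711 and CG7492 lost the call without either simXmel embryo and without melXsim replicate 1 (limma adjusted p of 0.0573 to 0.212), with differences of 0.68 to 1.13 in CG31886, 0.996 to 1.16 in CG14711 and 1.11 to 1.18 in CG7492. CG5706 lost it without simXmel replicate 2 (1.27, limma adjusted p = 0.0689) and CG43427 without simXmel replicate 1 (1.52, limma adjusted p = 0.0765), while CG34137 gained it without melXsim replicate 2 (0.77, limma adjusted p = 0.0377).

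**Figure D5:**
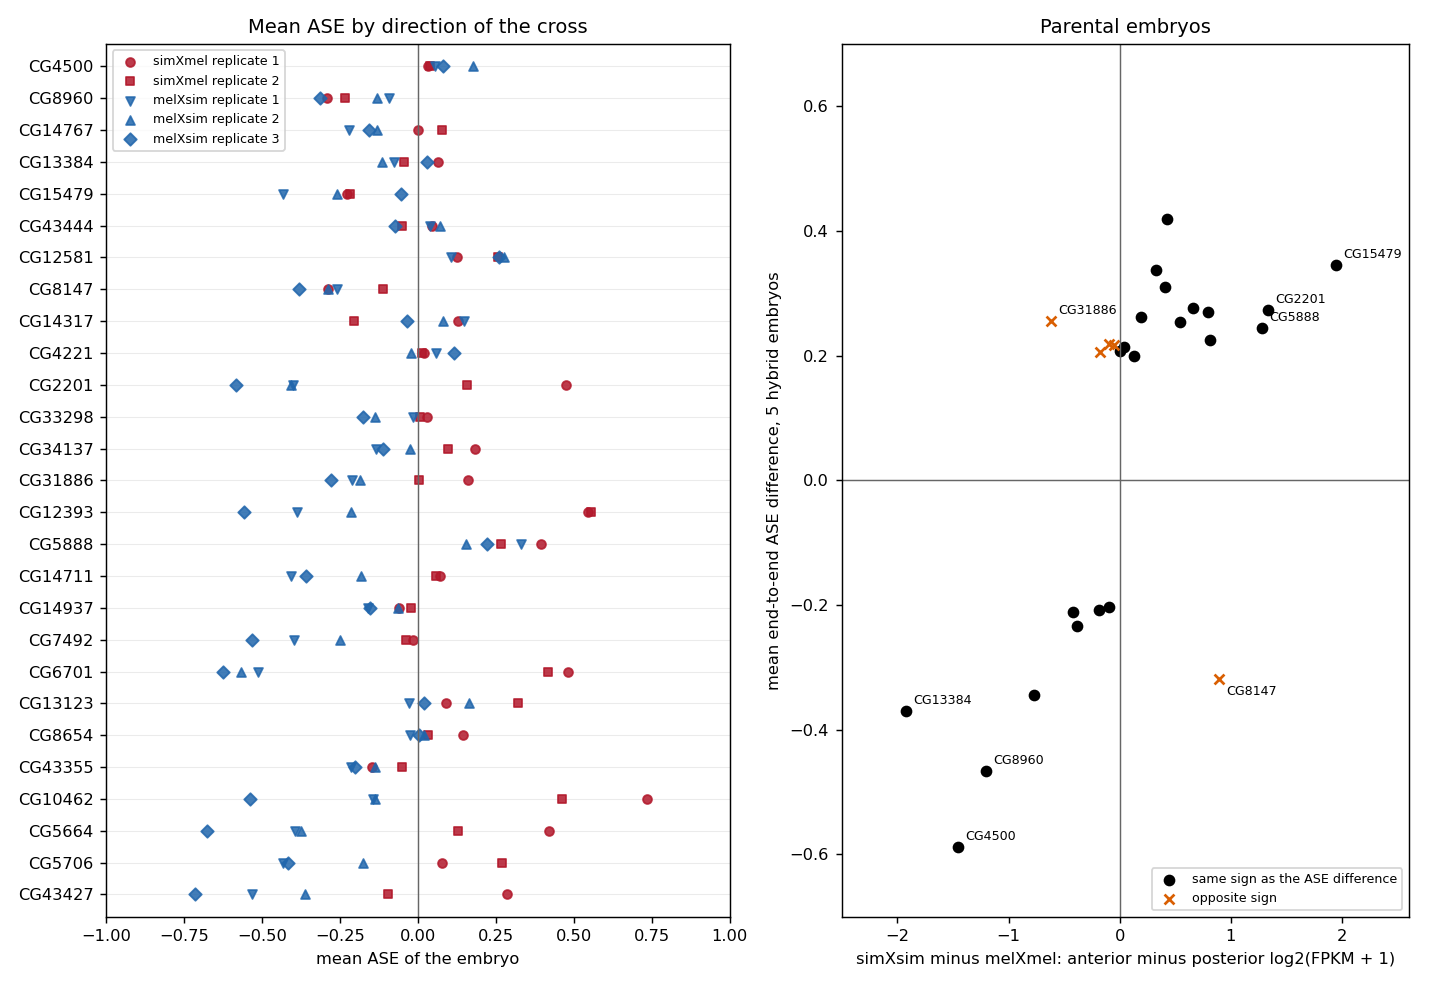
Left, mean ASE of each hybrid embryo (x axis) for the 27 members, red for simXmel and blue for melXsim. The red symbols lie to the right of the blue ones in CG6701, CG12393 and CG10462, while the colours mix in CG13384. Right, the parental difference (simXsim minus melXmel of the anterior minus posterior log2(FPKM + 1), x axis) against the mean end-to-end ASE difference of 5 hybrids (y axis), 1 point a member. Circles mark the 22 members of the same sign and crosses the 5 of opposite sign.

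The parental embryos, which the rule did not use, show whether the species differ along the axis in the direction of the allele difference. There was 1 embryo of each strain, so these are 2 values without a replicate check. The anterior minus posterior difference in log2(FPKM + 1) of simXsim minus that of melXmel had the sign of the end-to-end ASE difference in 22 of 27 members (81.5%), against 2178 of 3901 genes (55.8%). The parental difference was at least 1 in 6 members, and in all 6 it had the sign of the ASE difference, against 78 of 104 genes (75%). The genes set beside the members had no rule on the sign or size of their ASE difference, so these shares are of unlike sets. The same count was not made for the genes with other names that met the rule.

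CG15479 was the largest of the 6, with 1.24 in simXsim and -0.71 in melXmel, a difference of 1.94. CG13384 had 0.85 in simXsim and 2.77 in melXmel, where it had 32.2 FPKM at the anterior end in simXsim and 97.3 FPKM in melXmel, and 17.7 and 12.5 FPKM at the posterior end. CG4500 had -1.15 in simXsim and 0.30 in melXmel. Its posterior level was 307 FPKM in simXsim and 109 FPKM in melXmel, and its anterior level 160 FPKM in simXsim and 133 FPKM in melXmel. CG8960 had -1.01 in simXsim and 0.19 in melXmel, with an anterior level of 308 FPKM in simXsim and 1695 FPKM in melXmel. The other 2 were CG2201, with 0.07 in simXsim and -1.27 in melXmel, and CG5888, with -1.32 in simXsim and -2.60 in melXmel.

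The sign was opposite in 5 members, CG8147 (0.89), CG31886 (-0.62), CG5664 (-0.17), CG7492 (-0.09) and CG6701 (-0.05). CG8147 was thus the member of largest parental difference against its ASE difference, with -4.52 in simXsim and -5.41 in melXmel. Of the 18 members with more *D. simulans* reads at the anterior end, 14 had a parental difference of the same sign, and of the 9 others 8 had.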

How the data were processed

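The members and lists were chosen with earlier results of these data known. Per the labels and the methods, the authors mapped reads with STAR 2.4.2a to a *D. melanogaster* genome with SNPs masked, and base calls came from CASAVA 1.8.2. The deposited ASE score per gene and slice is theirs, as are the FPKM values, made with Cufflinks 2.2.1 and normalized for gene length and mapped fragments. The deposited allele counts are whole numbers without normalization. SNP positions in them are those of release 5 and gene coordinates those of release 6, so counts were used for 15 members with the same coordinates, each SNP once, and the depth of the other 12 is unknown. Of the columns in the authors' joint tables, 27 were left out because they hold no values or name no sample.

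The position of a slice was its number less 0.5 over the number of slices, and an end of the embryo was 1/3 of its length. FPKM were compared as log2(FPKM + 1), so changes of low genes are understated. Tests were run with limma 3.58.1 in R 4.3.3, tables with Python 3.11.15 and pandas 2.3.3, and limma was tested on simulated data. P-values measure the spread between embryos. Per the study's index list, replicate 1 of both crosses was sequenced in an earlier batch than the rest, too few embryos for a test within batches, so batch was tried as a term. All members are named, with values per embryo for the 15 of largest mean absolute difference and for those called among the largest 25.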

Additional observations from a re-analysis of the deposited data

Results flagged for a closer look

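In 12 members the end-to-end difference in total expression went one way in the simXsim embryo and the other way in the melXmel embryo. With 1 embryo a strain the differences were not tested. The share of all genes with this trait was not counted, so nothing is read from the 12 about the members. Some of the 12 lay close to 0 in a parent, such as CG43427, with 0.01 in simXsim and -0.13 in melXmel. The value of simXsim minus that of melXmel (log2) was 1.94 in CG15479, 1.34 in CG2201, 0.81 in CG14937, 0.79 in CG33298, 0.66 in CG4221, 0.19 in CG34137 and 0.13 in CG43427. It was -1.45 in CG4500, -1.20 in CG8960, -0.77 in CG43444, -0.62 in CG31886 and -0.17 in CG5664. In 10 of the 12 it had the sign of the end-to-end ASE difference. No hybrid embryo stood far from the other 4 by Dixon's ratio in any of the 27 sets of 5 differences in total expression, 1 set a member. Chance alone would mark about 1 in 20.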

How the results depend on the processing

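The number of members was 48 with a limit of 0.15 and 15 with a limit of 0.25. It was 25 to 39 when an embryo was left out, of which 20 (without melXsim replicate 1) to 25 were among the 27. It was 28, 27, 25, 27 and 36 with slice position taken from the first to the last slice, at least 2 or 5 values at each end, medians in place of means, and ends of 1/4 of the length in place of 1/3, of which 27, 27, 25, 23 and 22 were among the 27. Of the members, 8 to 11 were called for total expression when an embryo was left out and 8 to 12 under the other alternatives, against 10. The count over all genes fell to 561 without melXsim replicate 1, against 852. For direction of the cross, 6 to 11 members were called when an embryo was left out, the lowest without simXmel replicate 1 or 2, and 9 to 12 under the other alternatives. With a replicate block, 10 were called, the same 10 as without it, and a shared number marks no common animal, though number 1 of both crosses shares the earlier batch. With batch as a term 9 members were called in each test. Members with the parental sign were 19 of 24 to 23 of 27. No estimate called in either test changed sign. For 8 of the 10 members called for total expression and 5 of the 10 called for direction, the call held under every alternative run. The precision is limited by 5 hybrid embryos, 1 embryo of each parent, and unknown depth in 12 members.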
